A study of Homo sapiens with 12 samples.

Results

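The butyrophilin genes BTN3A1, BTN3A2, BTN3A3, BTN2A1 and BTN2A2 were followed in 12 RNA sequencing libraries of HT1080, a cell line established from a human fibrosarcoma. The genes were taken by symbol, and their 5 rows were among the 19293 genes of the count table. Each passed the filter on low counts, which left 12160 genes for testing. The identifiers in the table were ENSG00000026950.16 for BTN3A1, ENSG00000186470.13 for BTN3A2, ENSG00000111801.15 for BTN3A3, ENSG00000112763.15 for BTN2A1 and ENSG00000124508.16 for BTN2A2. All 5 lie together on chromosome 6.

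The libraries formed 4 groups of 3: untreated, interferon-gamma (IFNγ, 10 ng/ml), radiation (20 Gy), and the combination of IFNγ and radiation at the same doses. All groups were the same line at passages 15 to 20, harvested 24 h after treatment, with no genetic change named in the labels. A single line limits how far the values extend to other cells. Separate cultures are not stated for the replicates, and p-values therefore rest on the spread among the libraries sequenced here, part or all of which may be technical.

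Butyrophilins are membrane proteins of the immunoglobulin superfamily. BTN3A1 binds phosphoantigens, small pyrophosphates of isoprenoid synthesis, through its intracellular PRYSPRY domain, and together with BTN2A1 it lets a subset of human gamma delta T cells sense them. BTN3A2 lacks the PRYSPRY domain, BTN3A3 has one, and BTN2A2 is known as an inhibitor of T cell activation. IFNγ acts through JAK kinases, and MHC genes are among its known targets.

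Total counts per library ranged from 9675126 to 11010656. A count of 3, the limit that a count of 0 allows, corresponded to 0.276 to 0.305 CPM (counts scaled to library size). The mesenchymal markers VIM, FN1, COL1A1, COL1A2, COL5A1, THY1, S100A4 and PDGFRB summed to between 6603 and 7158 CPM. VIM, FN1 and COL5A1 supplied nearly all of it (5187, 1632 and 264 CPM untreated), while COL1A1 (6.12), PDGFRB (5.75), COL1A2 (1.60) and S100A4 (1.57 CPM) were low and THY1 had 8 counts over the 12 libraries. The 7 epithelial and endothelial markers summed to at most 12 counts in any library. Of 13 listed markers of T, B, myeloid and NK cells, 10 were in the table, and their summed level was 116 to 124 CPM in untreated cells, 137 to 139 after IFNγ, 165 to 171 after radiation and 185 to 196 after both. CD68, with 1217 to 2112 counts per library, supplied most of that sum, and CD3G was at 0 in every library. Irradiated replicate 2 stood apart. The other 9 markers had 1 to 4 counts in untreated libraries and 7, 2 and 8 after IFNγ. In the combination they had 6, 5 and 11, with PTPRC at 9 in replicate 3. Irradiated replicate 2 had 42, against 7 and 5 in the other libraries given radiation alone. Its PTPRC count was 23 against 2 and 1, its MS4A1 count 8 against 0 and 0, and its CD14 count 7 against 0 and 2. GBP5, an interferon-induced gene, had 59 counts there against 10 and 3 in the other irradiated libraries and 2, 6 and 13 in untreated cells. Calls of the 5 genes, and counts of called genes in the lists below, are also given without this library where they differ.

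The 250 bases before the start site are shown for BTN3A2, BTN3A3 and BTN2A1, because the first and the second gene rose with IFNγ and the third gave no call. For BTN3A2, RefSeq also holds a downstream start; its window (chr6:26367928-26368177), not shown, held none of the motifs searched and was 51.6% identical to the one shown. The sequences are from RefSeq, build GRCh38.p14, plus strand, written 5′ to 3′. RefSeq entries for BTN3A1 and BTN2A2 were not matched. Capitals mark AGCAAC, the core of the X1 box known from MHC gene promoters, and CCAAT, the box bound by nuclear factor Y, in either orientation (ATTGG on the opposite strand).
BTN3A2 (chr6:26364948-26365197): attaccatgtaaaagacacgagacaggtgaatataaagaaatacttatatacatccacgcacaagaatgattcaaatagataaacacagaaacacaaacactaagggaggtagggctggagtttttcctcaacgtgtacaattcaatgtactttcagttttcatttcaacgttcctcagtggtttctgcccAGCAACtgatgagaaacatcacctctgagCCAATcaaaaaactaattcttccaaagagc
BTN3A3 (chr6:26440254-26440503): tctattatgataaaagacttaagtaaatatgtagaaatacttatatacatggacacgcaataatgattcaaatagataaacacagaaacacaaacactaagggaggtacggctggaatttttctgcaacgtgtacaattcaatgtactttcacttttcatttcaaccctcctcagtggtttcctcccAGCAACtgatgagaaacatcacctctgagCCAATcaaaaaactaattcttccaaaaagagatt
BTN2A1 (chr6:26457705-26457954): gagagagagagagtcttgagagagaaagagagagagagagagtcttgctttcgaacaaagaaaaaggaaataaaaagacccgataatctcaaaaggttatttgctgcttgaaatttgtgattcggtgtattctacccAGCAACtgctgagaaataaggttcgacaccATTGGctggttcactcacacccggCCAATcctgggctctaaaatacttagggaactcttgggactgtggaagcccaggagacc

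AGCAAC began at position -59 in BTN3A2, -63 in BTN3A3 and -113 in BTN2A1, counted from the start site. A CCAAT box followed it at position -30 in BTN3A2 and -34 in BTN3A3. BTN2A1 had CCAAT at -59 and its reverse complement at -83. Over 35116 RefSeq promoter windows of the same length, searched on both strands, 10.3% held AGCAAC and 32.0% held CCAAT. The longest stretch that these windows share with at most 1 differing base, CCCAGCAACTGNTGAGAAA, was picked after the sequences were seen and overlaps AGCAAC. It was in 3 windows (0.00854%), those of BTN2A1, BTN3A2 and BTN3A3. The interferon-stimulated response element core GAAANNGAAA and the gamma-activated site TTCNNNGAA were in 3.02% and 6.57% of windows. Neither set of letters was in the 3 windows shown. Aligned end to end, the BTN3A2 and BTN3A3 windows were identical at 220 of 255 columns (86.3%), whereas BTN2A1 matched them at 47.6% and 49.7%. These matches describe letters and are not shown to be sites.

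IFNγ raised BTN3A1, BTN3A2, BTN3A3 and BTN2A2, and gave no call for BTN2A1. The count was 4 of 5 genes called higher and 0 called lower at an adjusted p below 0.05 in edgeR's quasi-likelihood test. The background was 15.0% of tested genes called higher and 14.1% called lower. The median log2 fold change was 1.84 over the 5 genes and -0.01 over all tested genes. In bulk RNA, a change in the number of cells that express a gene and a change in RNA per cell cannot be told apart.

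BTN3A1, the phosphoantigen binder, was at 12.6, 12.3 and 12.7 CPM in untreated replicates 1 to 3. After IFNγ it was at 59.9, 55.1 and 52.9 CPM. The groups were far apart and did not overlap, with means of 12.5 ± 0.183 and 56.0 ± 3.62 (SD, n = 3). The log2 fold change was 2.16 ± 0.0764 (SE), a 4.46-fold rise (95% interval 4.02 to 4.96, edgeR adjusted p = 1.23e-31).

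BTN3A3, the other BTN3 gene with a PRYSPRY domain, rose most of the 5. It was at 8.91, 10.1 and 9.34 CPM without treatment and at 56.0, 57.4 and 56.5 CPM after IFNγ. Both groups were tight (9.44 ± 0.586 and 56.6 ± 0.721, SD, n = 3) and did not overlap. Its log2 fold change was 2.58 ± 0.0828 (SE), or 5.99-fold (95% interval 5.34 to 6.72, edgeR adjusted p = 9.43e-34).

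BTN3A2, the family member without that domain, had the highest CPM of the 5 in every group and the smallest fold of the BTN3 genes. Its untreated libraries were at 30.4, 34.4 and 32.3 CPM and its IFNγ libraries at 119, 112 and 115 CPM. The lowest treated library was more than the highest untreated one, and the means were 32.3 ± 1.98 and 116 ± 3.54 (SD, n = 3). The log2 fold change of 1.84 ± 0.0543 (SE) corresponded to 3.57-fold (95% interval 3.31 to 3.85, edgeR adjusted p = 2.07e-35).

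BTN2A1, the partner of BTN3A1 in phosphoantigen sensing, was at 24.1, 24.6 and 21.9 CPM untreated and at 25.0, 23.9 and 23.6 CPM after IFNγ. These ranges overlapped, with means of 23.5 ± 1.41 and 24.2 ± 0.762 (SD, n = 3). The fold change was 1.03 (95% interval 0.920 to 1.14, edgeR adjusted p = 0.779), so a rise above 1.14-fold lay outside the interval.

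BTN2A2, the T cell inhibitor, was the gene of the 5 with the lowest CPM in every group. It was at 7.32, 8.28 and 7.61 CPM untreated and at 18.4, 14.9 and 13.7 CPM after IFNγ. The treated libraries were more spread than the untreated ones (15.7 ± 2.42 against 7.74 ± 0.495, SD, n = 3) but did not overlap them. The log2 fold change was 1.02 ± 0.12 (SE), or 2.03-fold (95% interval 1.72 to 2.39, edgeR adjusted p = 3.63e-10).

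**Figure D1:**
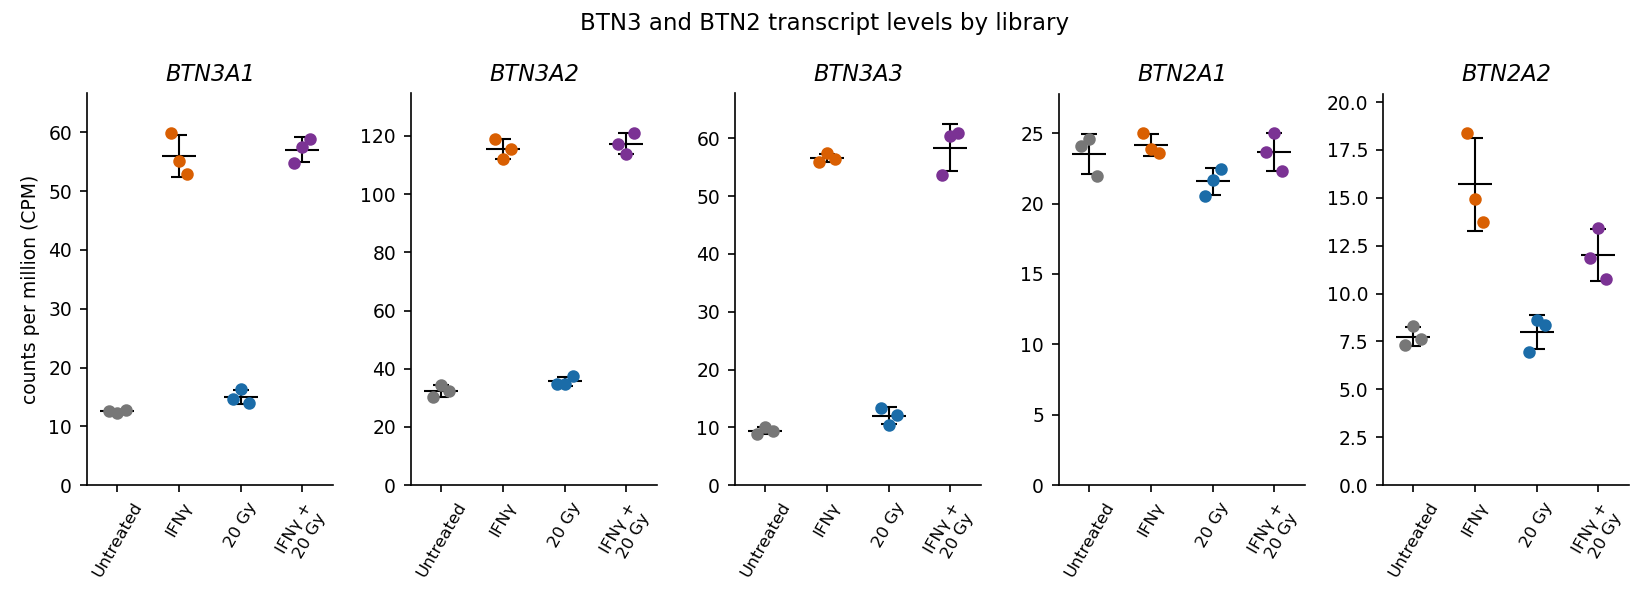
Level of each gene in CPM (vertical axes, each starting at 0) in the 12 libraries by group; points are libraries and black lines give the mean and SD of 3. BTN3A1, BTN3A2 and BTN3A3 form a low pair and a high pair of groups, BTN2A1 stays between 20.6 and 25.0 CPM, and BTN2A2 is highest after IFNγ alone.

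Counting error was small beside the rises with IFNγ. This does not extend to the smaller changes with radiation given below. The lowest count of the 5 genes was 69, for BTN2A2 in irradiated replicate 1 (exact Poisson 95% interval 53.7 to 87.3), and the highest was 1319, for BTN3A2 in replicate 3 of the combination (1249 to 1392). Both libraries lie outside the comparison of IFNγ with untreated cells, and these intervals cover counting error only. The genes also resemble each other: of the 50-base windows of annotated transcripts, 14.7% in BTN3A3 and 14.0% in BTN3A2 also occurred in another gene. BTN3A3 shared 13.7% with BTN3A2, BTN3A1 shared 6.24% with BTN3A2, BTN2A1 shared 3.92% with BTN2A2, and BTN2A2 shared 2.2% with BTN2A1. How reads from such windows were assigned is not given in the sources used here, so some counts could be split between these genes.

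The changes of the BTN3 genes with radiation alone were small. BTN3A1 and BTN3A3 were called higher (2 of 5) and 0 were called lower. The background was 27.9% of tested genes called higher and 28.2% called lower, so 2 of 5 is little above the background. The median log2 fold change was 0.14 over the 5 genes and 0.01 over all tested genes.

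BTN3A1 was at 14.7, 16.4 and 14.0 CPM after radiation, above each untreated library, with replicate 2 the highest. Its log2 fold change was 0.26 ± 0.1 (SE), or 1.20-fold (95% interval 1.04 to 1.38, edgeR adjusted p = 0.0231). Without irradiated replicate 2, which carries the blood cell and GBP5 counts described above, the value was 0.20 and the call was lost (adjusted p = 0.143). The call was also lost in DESeq2 (adjusted p = 0.0636) and without untreated replicate 2 (adjusted p = 0.0577). 

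BTN3A3 was at 13.4, 10.4 and 12.1 CPM after radiation, with replicate 2 the lowest and the groups not overlapping. The log2 fold change was 0.34 ± 0.115 (SE), or 1.27-fold (95% interval 1.08 to 1.49, edgeR adjusted p = 0.00955). It was 0.43 without replicate 2 (adjusted p = 0.00307) and 0.25, not called, without replicate 1 (adjusted p = 0.0948).

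BTN3A2 was at 34.7, 34.7 and 37.5 CPM after radiation, each above the untreated libraries. Its fold change of 1.10 (95% interval 1.01 to 1.21) did not pass the test (edgeR adjusted p = 0.0655). It was called when scaled by library totals (adjusted p = 0.0337), when at least 10 counts were required in every library (adjusted p = 0.0445) and without untreated replicate 2 (adjusted p = 0.0282). The 3 BTN3 genes together were at 54.3 ± 2.44 CPM untreated and 62.6 ± 1.01 CPM after radiation (SD, n = 3).

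The BTN2 genes gave no call with radiation. BTN2A1 was at 20.6, 21.7 and 22.5 CPM, a fold change of 0.916 (95% interval 0.819 to 1.02, edgeR adjusted p = 0.176). BTN2A2 was at 6.96, 8.64 and 8.36 CPM, within and around the untreated range, at 1.03-fold (95% interval 0.850 to 1.25, adjusted p = 0.801).

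**Figure D2:**
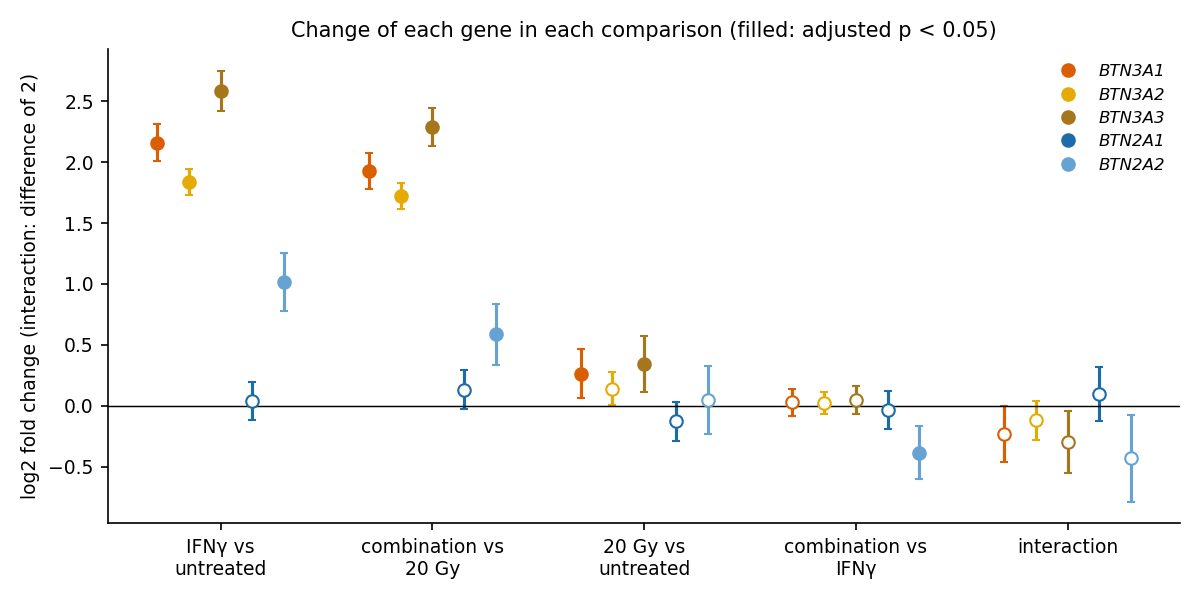
Fitted log2 fold change (vertical axis) of each gene in 4 comparisons between groups and, at the right, the interaction, with 95% intervals; filled points passed the adjusted p of 0.05 and open points did not. The BTN3 genes lie between 1.72 and 2.58 in both comparisons of IFNγ with its absence, BTN2A1 lies near 0 throughout, and BTN2A2 is below 0 for the combination against IFNγ.

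Cells given both treatments kept the BTN3 genes near their level after IFNγ alone. Against untreated cells, 4 of 5 genes were called higher, against 30.9% of tested genes called higher and 31.2% called lower. The folds were 4.55 for BTN3A1, 3.63 for BTN3A2 and 6.18 for BTN3A3, with 1.55 for BTN2A2 and 1.00 for BTN2A1. Against irradiated cells, the addition of IFNγ gave 4 of 5 genes called higher, against 14.5% of tested genes called higher and 12.4% lower. There BTN3A1 was 3.80-fold higher, BTN3A2 3.29-fold, BTN3A3 4.88-fold and BTN2A2 1.5-fold (95% interval 1.26 to 1.79), while BTN2A1 was at 1.10-fold (0.981 to 1.22). These comparisons and those above share groups and are not independent.

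The combination against IFNγ alone asks what radiation adds to cells that already have the cytokine. BTN3A1 was at 54.7, 57.5 and 58.9 CPM, BTN3A2 at 117, 114 and 121 CPM, and BTN3A3 at 53.6, 60.5 and 61.0 CPM, each range overlapping the IFNγ libraries. Their 95% intervals were 0.943 to 1.10 for BTN3A1, 0.956 to 1.08 for BTN3A2 and 0.952 to 1.12 for BTN3A3, and none was called (edgeR adjusted p = 0.687, 0.663 and 0.520). BTN2A1, at 23.6, 25.0 and 22.3 CPM, was not called either (0.979-fold, 95% interval 0.879 to 1.09, adjusted p = 0.749).

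BTN2A2 was the exception, with 1 of 5 genes called lower and 0 higher. The background was 30.4% of tested genes called lower and 30.3% called higher, so 1 of 5 is not above the background. It was at 11.9, 13.4 and 10.7 CPM in the combination, below the lowest IFNγ library at 13.7 and above the highest untreated one. The fold change against IFNγ alone was 0.765 (95% interval 0.658 to 0.889, edgeR adjusted p = 0.00174). Without IFNγ replicate 1, the highest library, the log2 fold change went from -0.39 to -0.25 and the call was lost (adjusted p = 0.0716).

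The interaction, which compares the IFNγ response of irradiated cells with that of non-irradiated cells, was called for 0 of 5 genes, in edgeR as in DESeq2 and limma-voom. The background was 1.38% of tested genes called higher and 0.995% called lower. At an unadjusted p below 0.05 in edgeR there were 3 of 5, against 14.7% of tested genes. The estimates were -0.23 ± 0.115 for BTN3A1, -0.12 ± 0.0796 for BTN3A2, -0.30 ± 0.129 for BTN3A3, 0.10 ± 0.112 for BTN2A1 and -0.43 ± 0.177 for BTN2A2 (log2, SE), with adjusted p from 0.218 to 0.742. A weaker or stronger IFNγ response in irradiated cells was therefore not shown for any of the 5 genes.

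The order of the levels differed between cells with and without IFNγ. Per kilobase of annotated exon, the untreated order was BTN2A1 at 6.21 CPM per kb, BTN3A2 at 4.59, BTN3A1 at 2.26, BTN3A3 at 1.67 and BTN2A2 at 1.21. Libraries of neighbouring genes in that order did not overlap, and irradiated cells had the same order, from 5.70 for BTN2A1 to 1.25 for BTN2A2. After IFNγ the order was BTN3A2 at 16.4, BTN3A1 at 10.1, BTN3A3 at 10.0, BTN2A1 at 6.38 and BTN2A2 at 2.45 CPM per kb. BTN3A1 and BTN3A3 overlapped there, and also in the combination, where each was at 10.3 and BTN3A2 was at 16.7. Ranks between genes depend on the length used, which counts every annotated exon (3787 bases for BTN2A1 and 7042 for BTN3A2). By CPM alone, BTN3A2 (32.3) was above BTN2A1 (23.5) in untreated cells.

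Within the BTN3 genes, IFNγ shifted the mixture of transcripts towards BTN3A3. Together they rose from 54.3 ± 2.44 to 228 ± 6.01 CPM (SD, n = 3), and stood at 233 ± 7.80 CPM in the combination. BTN3A2 supplied 59.5 ± 0.973% of their counts in untreated cells and 50.6 ± 0.722% after IFNγ. BTN3A3 supplied 17.4 ± 0.322% and 24.8 ± 0.911%, and BTN3A1 23.1 ± 1.27% and 24.5 ± 0.989%. In irradiated cells the shares were 56.9 ± 1.94% for BTN3A2, 24.0 ± 2.34% for BTN3A1 and 19.1 ± 2.19% for BTN3A3. In the combination they were 50.4 ± 1.42%, 24.5 ± 0.281% and 25.1 ± 1.16%, close to those after IFNγ alone.

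**Figure D3:**
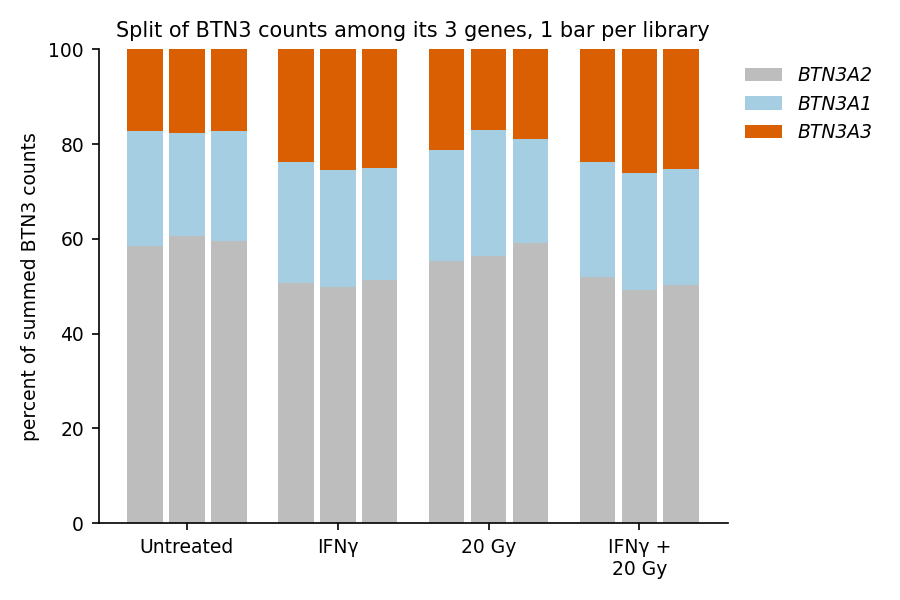
Share of the summed BTN3A1, BTN3A2 and BTN3A3 counts (percent, vertical axis) held by each gene, stacked to 100% with 1 bar for each of the 3 libraries of a group. The BTN3A2 part averages 59.5% untreated and 50.6% after IFNγ, and the BTN3A3 part at the top 17.4% and 24.8%.

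Ratios between genes of the same library tested these shifts without a scaling factor. Over the 10 pairs of the 5 genes, the change of the log2 ratio with IFNγ was tested by an exact two-sided permutation within irradiated and non-irradiated libraries. The smallest p it can give is 0.005. All 10 pairs passed after adjustment over the 10 (adjusted p from 0.00556 to 0.01), with pairs that share a gene not being independent. The BTN3A2 to BTN3A3 ratio fell by 0.66 on the log2 scale and the BTN3A1 to BTN3A3 ratio fell by 0.40, while BTN3A1 to BTN3A2 rose by 0.26. BTN3A1 rose by 1.95 relative to BTN2A1, and BTN2A1 to BTN2A2 fell by 0.71. With radiation, 0 of 10 pairs passed (adjusted p from 0.0583 to 0.64), and 6 had an unadjusted p below 0.05. Without irradiated replicate 2, 3 of 10 passed, which were BTN3A1, BTN3A2 and BTN3A3, each rising against BTN2A2 by 0.31, 0.29 and 0.43 (adjusted p = 0.0333, 0.025 and 0.025).

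Of 10 further butyrophilin family members listed, 9 were in the table and 1, ERMAP, a red cell membrane protein, was tested. ERMAP had 93 to 130 counts per library and was called in neither single treatment (log2 fold change -0.03 ± 0.116 with IFNγ and 0.21 ± 0.112 with radiation). It was called lower in the combination than after radiation (-0.32 ± 0.114, edgeR adjusted p = 0.0308), and without irradiated replicate 2 that call was lost (-0.30, adjusted p = 0.0948). The other 8 had at most 13 counts each. BTN1A1, the milk fat protein, had 1 count over the 12 libraries, BTNL3 had 0, BTNL8 had 2 and BTNL9 had 13. At these counts a change would not have been detectable.

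The genes between the cytokine and its targets were measured beside the members. Of 7 interferon receptor and JAK kinase genes, 2 rose with IFNγ and 0 fell, with a list median of 0.07. This stood beside a background of 15.0% higher and 14.1% lower, and the count was not tested against it. IFNAR2, a type I interferon receptor chain, had a log2 fold change of 1.06 ± 0.0797 and JAK2, the kinase bound to the IFNγ receptor, 0.63 ± 0.12. The others were not called: IFNAR1 at 0.10, JAK1 at 0.07, TYK2 at -0.10, and the receptor chains IFNGR1 at -0.15 and IFNGR2 at -0.07. With radiation 2 rose, JAK1 by 0.27 ± 0.0368 and IFNAR1 by 0.26 ± 0.0488, and 0 fell. The background with radiation was 27.9% called higher and 28.2% called lower, so 2 of 7 called higher is near it.

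A further list held transcription regulators named in the literature for BTN or MHC class I genes. Of 20 listed, 18 were tested, and 10 rose and 0 fell with IFNγ (list median 0.55). The background with IFNγ was 15.0% called higher and 14.1% called lower. The list includes interferon-induced genes such as IRF1 and was chosen with earlier results of these data known. Its counts are therefore a description and no test against the background. CIITA, the master regulator of MHC class II genes, had the largest log2 fold change at 5.05 ± 0.101, followed by IRF1, an interferon-induced activator, at 4.81 ± 0.169. IRF1 was at 6.94, 6.96 and 6.80 CPM untreated and at 221, 183 and 178 CPM after IFNγ, with no overlap. With radiation 6 rose and 6 fell, against the background of 27.9% and 28.2%, the largest changes being RFXAP, an X box factor subunit, at -0.96 ± 0.147, STAT3 at 0.95 ± 0.0456 and STAT2 at 0.80 ± 0.0816. The interaction was called lower for 4 of the 18 and higher for 0, against 0.995% and 1.38% of tested genes. Those called lower included IRF9 at -0.89, STAT3 at -0.48 and RFX5 at -0.39. Without irradiated replicate 2, 3 were called lower. IRF8 and SPI1, with 13 and 9 counts over the 12 libraries, were not tested.

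The mevalonate pathway makes phosphoantigens that BTN3A1 binds. Of its 11 genes tested with IFNγ, 0 rose and 1 fell, FDFT1, squalene synthase, at -0.15 ± 0.0387. With radiation 3 rose and 2 fell: the largest changes were MVD at 0.36 ± 0.0809, IDI1, which makes one isoprenoid pyrophosphate from the other, at 0.33 ± 0.0453, and SQLE, squalene epoxidase, at -0.30 ± 0.0436. In the combination against untreated cells 4 rose and 2 fell, among them IDI1 at 0.46 ± 0.0446 and SQLE at -0.43 ± 0.0438. Over all tested genes the shares called were 15.0% and 14.1% with IFNγ, 27.9% and 28.2% with radiation, and 30.9% and 31.2% with the combination (higher and lower).

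Among 7 genes reported as partners of BTN3A1 or BTN2A1 or as handlers of phosphoantigens, 5 were tested. With IFNγ 1 rose and 3 fell, beside a background of 15.0% higher and 14.1% lower. RHOB, a small GTPase reported to act with BTN3A1, was at -0.56 ± 0.0581 and ABCA1, a sterol transporter, at -0.40 ± 0.0607. PPL, which had 3 to 12 counts per library, was at -1.30 ± 0.485, and MAP4, at 0.03 ± 0.0318, was not called. With radiation 3 rose and 1 fell, beside a background of 27.9% higher and 28.2% lower. Those that rose were ABCA1 at 0.82 ± 0.0529, RHOB at 0.58 ± 0.051 and MAP4 at 0.16 ± 0.0316. For these 5 genes, neither count was tested against the background. APOA1 and CD209, the latter a lectin that binds BTN2A1, had 9 and 2 counts in all and were not tested.

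Surface ligands that gamma delta T cells can meet on a tumour cell formed the last list, with 15 of 19 tested. With IFNγ 4 rose and 3 fell, against 15.0% of tested genes called higher and 14.1% called lower. ICAM1, an adhesion molecule, rose from 3, 7 and 6 counts to 706, 546 and 521 counts (log2 fold change 6.78 ± 0.382), PVR was at 0.76 ± 0.0363 and EPHA2 at -0.31 ± 0.037. With radiation 6 rose (5 without irradiated replicate 2) and 4 fell, against 27.9% and 28.2% of tested genes. The largest changes were RAET1G at 1.90 ± 0.542, which had 0 to 11 counts per library, and MR1 at 1.38 ± 0.184.

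The genes around the cluster were measured as well. The order of the butyrophilin genes along the chromosome, per RefSeq, was BTN3A2, BTN2A2, BTN3A1, BTN3A3, BTN2A1 and BTN1A1, so BTN2A2 lies between BTN3 genes and BTN2A1, which gave no call with IFNγ, lies between BTN3A3 and BTN1A1. Within 500 kb on either side, 37 of 40 protein-coding genes were in the table and 15 were tested. With IFNγ 3 of the 15 rose and 0 fell (median 0.13), beside a background of 15.0% higher and 14.1% lower. TRIM38, a ubiquitin ligase, was at 0.80 (adjusted p = 2.09e-17), the histone gene HIST1H2AC at 0.59 (adjusted p = 0.000108) and HMGN4 at 0.13 (adjusted p = 0.0301). Histone genes have near-identical copies, so their counts are uncertain. With radiation 6 of the 15 rose and 4 fell (6 fell without irradiated replicate 2). The background there was 27.9% higher and 28.2% lower. With 15 genes, these counts were not tested against the background and do not show a regional effect.

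**Figure D4:**
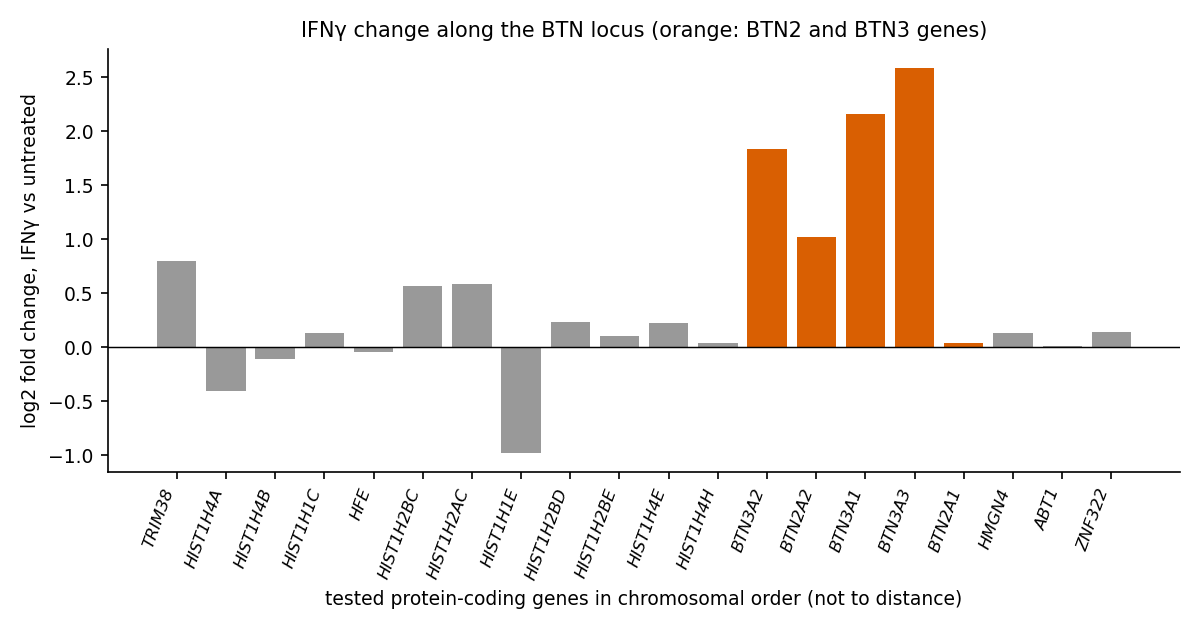
Log2 fold change of IFNγ against untreated cells (bars, vertical axis) for the tested genes of the region in their order on chromosome 6 (horizontal axis, order and not distance). Members are in orange and neighbours in grey; BTN3A2, BTN2A2, BTN3A1 and BTN3A3 lie above each neighbour, at 1.84, 1.02, 2.16 and 2.58, and BTN2A1 lies at 0.04.

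Across the 12 libraries the BTN3 genes varied together, with Pearson's r of log2 CPM from 0.994 to 0.996 between them. BTN2A2 followed them at 0.888 to 0.905 and BTN2A1 at 0.440 to 0.476, and BTN2A1 with BTN2A2 gave 0.629. These values describe 12 libraries that fall into sets with and without IFNγ, so for the BTN3 genes they mostly restate that split. Among the 10489 tested genes whose mean log2 CPM reached 2, PARP9, an ADP-ribosyltransferase family gene, was most like BTN3A1 (r = 0.999) and BTN3A2 (0.998), with SAMD9L among the nearest 3 of each BTN3 gene (0.999, 0.998 and 0.997). IRF1 was the third for BTN3A1 (0.998). PARP14 was the third for BTN3A2 (0.998) and BTN3A3 (0.997). ERAP1, which trims peptides for MHC class I, was nearest to BTN3A3 (0.998), with log2 fold changes of 1.54 with IFNγ and 0.17 with radiation. BTN2A1 was most like CAPN2 (0.914), MID2 (0.914) and NME6 (0.861), and BTN2A2 like CDCP1 (0.959), NLRP3 (0.958) and KLF10 (0.957). These genes were picked as the highest r among 10489 over 12 libraries, and the r values were not tested. BTN2A1 was called in no comparison, so its nearest genes are not shown to vary with it.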

How the data were processed

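RNA from 12 libraries was sequenced, 50 cycles paired-end, per the labels' protocols, after ribosomal RNA removal with a stranded total RNA kit. Since the design text speaks of an mRNA protocol, poly(A) selection cannot be settled. The deposited table holds raw, whole-number counts for each gene that were not normalized by the authors. The submitters' processing notes name TopHat2 2.0.13 and Cuffdiff 2.2.1, with Cufflinks and FastQC 0.11.3, and hg19/GRCh37. How reads were counted, on which strand and with which annotation is not given in the sources used here. Names over the first 4 columns were shifted by 1 place, so columns were read by content and count columns matched by title.

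Counts were fitted in edgeR 4.0.16 (R 4.3.3) with filterByExpr (genes left out held 0.0678% of counts), TMM scaling, robust quasi-likelihood fits of all 4 groups together and Benjamini-Hochberg adjustment over 12160 genes. Calls needed an adjusted p below 0.05. The standard error is the log2 fold change divided by the root of F, an approximation. The script was tested on simulated data. CPM use TMM library sizes. The common biological coefficient of variation was 2.71%, and replicate pairs differed by chi-square per degree of freedom of 1.13 to 2.75 over genes with at least 20 counts. Log ratios used a pseudocount of 0.5 counts and an exact permutation test (SciPy 1.17.1). Exon lengths, shared windows and overlaps came from GENCODE 29 (GRCh38), a build other than the authors', and promoters from RefSeq; 0 annotated genes overlapped the members.

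Alternatives were library totals, RLE size factors, DESeq2 1.42.0, limma-voom (limma 3.58.1), no filter, at least 10 counts in every library, the compared groups alone, a replicate block and leaving out each library. Lists and neighbours were rerun without irradiated replicate 2, an alternative chosen after seeing the data. Genes named were the 5 members, up to 3 called genes with the largest change from each list (every tested gene of lists up to 7), the 3 nearest by correlation and the called neighbours within 500 kb; some genes this rule names are not reported here. Other named genes, such as further butyrophilins, RFX5 or IRF9, were chosen after their values were seen. The members and lists were chosen with earlier results of these data known.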

Additional observations from a re-analysis of the deposited data

How the results depend on the processing

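Of the members' log2 fold changes under each alternative, 575 kept direction and side of the threshold, 11 reversed (none of them called), 5 lost the call and 3 gained it. With library totals BTN2A1, never called, went to -0.021 for IFNγ, -0.016 for the combination against untreated cells and 0.0049 for the combination against IFNγ. Leaving out 1 library, its ranges were -0.00999 to 0.071, -0.042 to 0.047 and -0.074 to 0.0104 in these 3 comparisons. BTN2A2 with radiation ranged from -0.014 to 0.13, and for the combination against IFNγ BTN3A1 ranged from -0.011 to 0.093 and BTN3A2 from -0.000541 to 0.0599. Members called with radiation were 1 in DESeq2 and 1 to 2 with a library left out (1 without irradiated replicate 1 or 2), against 2. For the combination against IFNγ they were 0 to 1 (0 without IFNγ replicate 1). Ratios passing with radiation were 0 to 3 of 10 (3 without irradiated replicate 2). The cause was not tested.

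Same-numbered libraries did not vary together (r from -0.0711 to 0.0537 over 18 pairs, 0 above 0.1). With the replicate block, members called stayed at 4 for IFNγ, 2 for radiation, 4 and 4 for the combination against untreated and irradiated cells, 1 against IFNγ and 0 for the interaction.

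Over all tested genes, DESeq2 called 2366 genes with IFNγ against 3544 in edgeR, 2129 against 3270 for the combination against radiation, and 147 against 289 for the interaction. With library totals, 31.1% of calls with IFNγ were higher against 51.6%, 38.0% against 53.9% for the combination against radiation, and 69.4% against 58.1% for the interaction; the median log2 fold change moved by -0.06 with IFNγ.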
